A study of Homo sapiens with 12 samples.

Results

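Etoposide-induced senescence was described across the whole transcriptome by comparing 3 RNA-seq libraries of senescent WI-38 cells with 3 libraries of proliferating WI-38 cells, which are 6 of the 12 libraries of the series. WI-38 is a line of human diploid fibroblasts, kept here at low population doubling levels, and both groups had been transfected with the same pool of non-targeting control siRNAs (siCtrl) at 25 nM. The proliferating cells (siCtrl_Prolif) spent 8 days in medium with the vehicle DMSO, and the senescent cells (siCtrl_Sen) spent 8 days in medium with 50 µM etoposide, a topoisomerase II poison that leaves double-strand breaks in DNA. The libraries were chosen by these labels alone. Exposure to the drug and the arrest it brings cannot be told apart in this design, since no group received etoposide and went on dividing. The remaining 6 libraries, from senescent cells with siRNAs against NTRK2 or BDNF, entered the filter on low counts and the estimate of the spread between libraries, and no comparison.

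Senescence is a lasting exit from the cell cycle in which cells stay metabolically active. In damaged fibroblasts p53 raises the CDK inhibitor p21, the retinoblastoma family proteins keep E2F factors silent, and the DREAM complex (the repressor formed by the RB-like proteins, E2F and the MuvB core) shuts down the genes of mitosis. Senescent fibroblasts are also known for loss of lamin B1, an enlarged lysosomal compartment and a secretome of cytokines, growth factors and proteases, called the senescence-associated secretory phenotype (SASP).

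The 6 libraries held between 38815444 and 72328151 counts, with no separation of the groups by depth. The first principal component of all 12 libraries took 58.6% of the variance and placed the 3 proliferating libraries between -99.9 and -99.0 and the 3 senescent ones between 34.6 and 35.6. Of the 13 fibroblast marker genes all passed the filter on low counts, 3 fell past the fold limit, 11 were lower and 1 higher by adjusted p alone, and their summed level was 32497 to 34400 CPM in proliferating cells and 23413 to 25212 CPM in senescent cells, where CPM are counts scaled to the library size after TMM normalisation. The markers were present in both groups and mostly lower in senescent cells. PDGFRB and PDGFRA, the platelet-derived growth factor receptors used as fibroblast markers, fell 2.47-fold and 2.06-fold. Markers of other lineages were low apart from the endothelial TEK. Summed epithelial markers went from 1.16–1.31 to 4.0–4.73 CPM and leukocyte markers from 0.52–0.622 to 1.75–2.26 CPM. Neural markers went from 4.87–5.84 to 7.17–8.11 CPM, endothelial markers, which were mostly TEK, fell from 75.3–78.3 to 34.4–36.4 CPM, and the adipocyte and smooth muscle markers went from 7.3–8.09 to 5.79–6.51 CPM. Of the tested markers, 3 of 5 epithelial, 2 of 3 leukocyte and 2 of 5 neural ones were called higher and none lower. Of 4 endothelial markers 2 were called higher and 1 lower, and of 4 adipocyte and smooth muscle markers 1 in each direction. The part of these other lineages in the results was not tested. As the RNA came from bulk cultures, fewer cells expressing a gene and less of its RNA per cell cannot be told apart. The labels do not say that the libraries of a group came from separate cultures, so p-values measure the spread between these libraries, which may be technical.

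Of 21518 genes tested, 11.6% were called higher and 5.16% lower in senescent cells, a call being an adjusted p under 0.05 together with a log2 fold change beyond 1 in either direction. By adjusted p alone, 29.8% were higher and 28.3% lower. These shares are the background against which the counts of each gene list are given. The excess of higher calls came from scarce transcripts: among genes whose higher group averaged 1 CPM or less, 1699 were called higher and 198 lower, whereas among the 15957 genes over 1 CPM, 795 (4.98%) were called higher and 912 (5.72%) lower. Over 100 CPM the counts were 55 higher and 92 lower of 2233 genes. The median log2 fold change over all genes tested was 0.02, and -0.05 over the genes at 1 CPM or more.

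**Figure D1:**
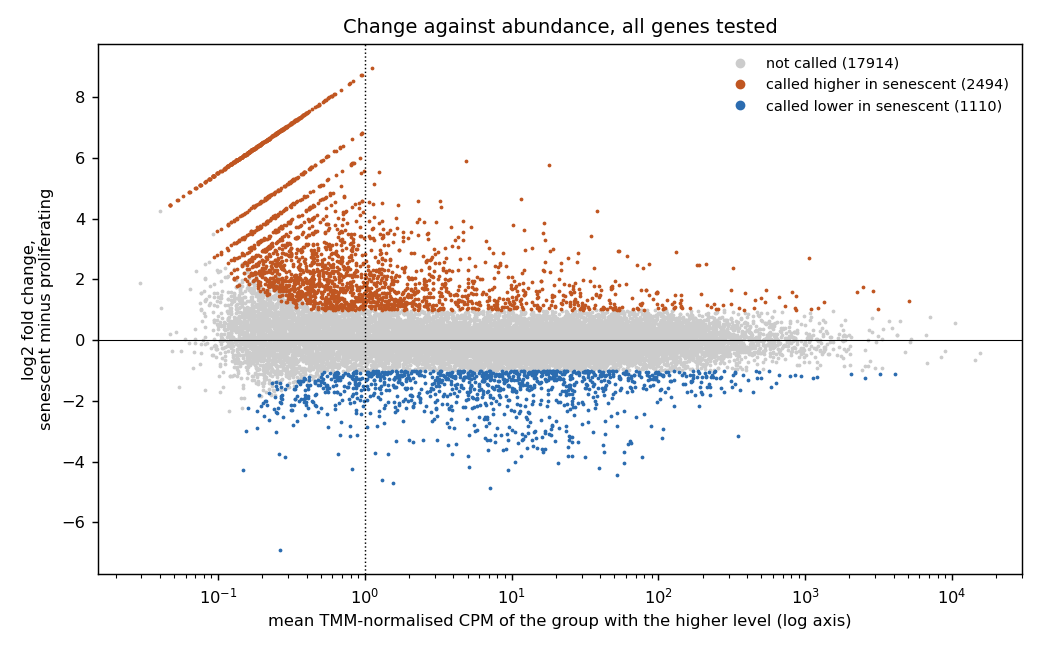
The log2 fold change (senescent minus proliferating) of each of 21518 genes is plotted against the mean TMM-normalised CPM of the group with the higher level, on a log axis, with calls coloured and 1 CPM dotted. The 2494 genes called higher crowd to the left of the dotted line, and the 1110 called lower spread on both sides of it. The slanted rows at the left are genes with no or a few counts in proliferating cells, whose fitted fold changes depend on the prior count.

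The genes called higher had a median of 0.506 CPM in senescent cells and a median log2 fold change of 2.33, and the genes called lower had a median of 7.24 CPM in proliferating cells and a median absolute log2 fold change of 1.44. Between 24315 and 25396 genes had a count in the proliferating libraries and between 28867 and 30049 in the senescent ones. The mean difference was 4547 genes, with p = 0.1 in a two-sided exact permutation test, which is the smallest p that the 20 splits of 3 against 3 libraries can give. Among the tested genes, 435 had 0 counts in all 3 proliferating libraries, and their median level in senescent cells was 0.186 CPM, with a highest value of 1.12 CPM. That highest value belonged to KIF1A, a neuronal kinesin that moves vesicle precursors, which had 0 counts in each proliferating library and 56, 68 and 68 in the senescent ones, at least 18.8-fold higher against a floor of 3 counts per library. These genes passed the filter only through libraries of senescent cells and so could differ only upwards.

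Genes of cell division fell together. All 44 genes of a list on mitosis passed the test with lower values in senescent cells, 41 of them past the fold limit, and the median log2 fold change was -3.13. KIF20A, a kinesin of the midzone that is needed for cytokinesis, had the largest fall of the list. Its level was 52.3, 51.1 and 52.5 CPM in the proliferating libraries and 2.44, 2.57 and 2.16 CPM in the senescent ones, a 21.7-fold fall (log2 fold change -4.44 ± 0.10 SE, adjusted p = 6.05e-22). The groups were far apart and the libraries within each group nearly equal.

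CDC20, the activator of the anaphase-promoting complex, was at 57.4, 57.4 and 59.7 CPM and then at 3.83, 3.48 and 3.2 CPM. MYBL2, the B-Myb factor that switches MuvB from repression to activation of mitotic genes, was at 20.4, 20 and 21.1 CPM and then at 0.837, 1.36 and 1.47 CPM. DLGAP5, a protein of the mitotic spindle, was at 24.5, 25.7 and 22.6 CPM and then at 1.82, 1.84 and 1.47 CPM. None of the 3 genes had overlapping groups, as was the case for 61.3% of all genes tested, and their falls were 16.6-fold, 16.7-fold and 14.2-fold. The proliferation marker MKI67 fell 12.8-fold, the kinase CDK1 8.55-fold and its partner cyclin B1 (CCNB1) 5.75-fold. The 3 members that fell by less than the fold limit, named after their values were seen, were INCENP of the chromosomal passenger complex (-0.90), ECT2, the exchange factor for RhoA at the midzone (-0.74), and the checkpoint protein BUB3 (-0.20).

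The cell cycle genes homology region (CHR, searched as TTTGAA on either strand) is bound by the MuvB core and the CCAAT box (searched as CCAAT) by NF-Y. In windows of 300 bases, from 250 before to 50 after each RefSeq gene start, the CHR letters stood in 73.0% of the mitosis genes with a promoter in the table (27 of 37) and in 14.4% of all tested genes with a promoter. CCAAT stood in 81.1% and 42.1%, respectively. For every motif a gene counted if any of its listed promoters held the letters, so genes with more promoters had more windows. Lists with mostly higher members held CCAAT as well. It stood in 90.3% of the replication-dependent histone genes (28 of 31) and in 66.7% of the p53 targets (14 of 21). The CHR letters stood in 35.5% and 14.3% of the genes of these lists. The windows of 4 mitotic genes are shown. CDC20, DLGAP5 and SPC25 were chosen as the largest falls of the list with CHR letters in the window, and CCNB1 was added. CHR and CCAAT letters are in capitals, as given by RefSeq on GRCh38.p14 (the counts were made on hg19):
CDC20, chr1:43358731-43359030, plus strand: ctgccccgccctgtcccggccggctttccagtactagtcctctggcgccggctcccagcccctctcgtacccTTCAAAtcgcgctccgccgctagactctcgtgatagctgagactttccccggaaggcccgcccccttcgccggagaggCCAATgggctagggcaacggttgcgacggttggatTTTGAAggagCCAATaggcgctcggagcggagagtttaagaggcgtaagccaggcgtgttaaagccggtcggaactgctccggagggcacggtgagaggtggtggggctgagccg
DLGAP5, chr14:55191536-55191835, minus strand: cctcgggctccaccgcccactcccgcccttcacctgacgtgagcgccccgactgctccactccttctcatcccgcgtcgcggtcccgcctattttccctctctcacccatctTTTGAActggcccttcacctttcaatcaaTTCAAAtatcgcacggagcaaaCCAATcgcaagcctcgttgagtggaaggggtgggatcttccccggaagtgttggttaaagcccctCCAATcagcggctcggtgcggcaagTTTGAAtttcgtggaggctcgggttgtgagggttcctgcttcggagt
SPC25, chr2:168890381-168890680, minus strand: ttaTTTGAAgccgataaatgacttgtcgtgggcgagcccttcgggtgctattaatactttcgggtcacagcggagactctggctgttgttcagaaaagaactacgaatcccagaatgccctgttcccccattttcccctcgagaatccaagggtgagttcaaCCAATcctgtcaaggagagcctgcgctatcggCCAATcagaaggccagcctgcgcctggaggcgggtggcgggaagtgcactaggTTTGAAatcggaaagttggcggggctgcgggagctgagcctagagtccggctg
CCNB1, chr5:69166900-69167199, plus strand: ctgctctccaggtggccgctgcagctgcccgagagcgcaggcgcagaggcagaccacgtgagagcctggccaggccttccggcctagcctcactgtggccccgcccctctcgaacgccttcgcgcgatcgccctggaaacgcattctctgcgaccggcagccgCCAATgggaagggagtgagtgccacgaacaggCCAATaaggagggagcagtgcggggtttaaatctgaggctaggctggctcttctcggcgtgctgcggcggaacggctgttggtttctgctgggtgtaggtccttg
CDC20 held 2 CHR matches, beginning 178 and 65 bases before the start, with CCAAT at 100 and 55 bases before it. DLGAP5 held 3 CHR matches and 2 CCAAT boxes. SPC25, a subunit of the NDC80 kinetochore complex chosen for its CHR letters, held a CHR match 3 bases before the start and CCAAT at 88 and 56 bases before it, and fell by 3.83 on the log2 scale. CCNB1 had CCAAT at 87 and 55 bases before the start and none of the exact CHR letters in this window. A match is a description of the sequence, not a site or a cause.

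Genes of DNA replication also fell. Of 38 genes for DNA replication and nucleotide supply, 37 were lower by adjusted p and 25 past the fold limit, none was higher, and the median log2 fold change was -1.57. TK1, the cytosolic thymidine kinase, was at 78.4, 74.1 and 79.5 CPM in proliferating cells and at 5.36, 5.19 and 5.47 CPM in senescent cells, a 14.5-fold fall (-3.85 ± 0.07 SE, adjusted p = 7.66e-23). RRM2, the small subunit of ribonucleotide reductase, was at 88.4, 89.9 and 87.4 CPM and then at 11.8, 12.4 and 13.3 CPM. Both genes supply DNA precursors, and neither had overlapping groups. The helicase subunit MCM2 fell 3.23-fold, the helicase component CDC45 8.54-fold and MCM10, which helps to activate the helicase, 10.2-fold. The single member that did not pass was PCNA, the sliding clamp and also a p53 target, at a log2 fold change of 0.13 (named after its value was seen).

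The core letters of E2F sites were searched on either strand as TTCCCGC, in a second form as TTCGCGC, in a further form as TTGCCGC and lastly as TTGGCGC. They stood in the windows of 82.4% of the replication genes with a promoter (28 of 34), of 29.7% of the mitosis genes and of 22.8% of all tested genes. The CHR letters, by contrast, stood in 5.88% of the replication genes (2 of 34). The windows of TK1 and of CDC6, the licensing factor that loads the MCM helicase, are shown. Both genes were chosen for their E2F letters, which are in capitals, RefSeq, GRCh38.p14:
TK1, chr17:78187003-78187302, minus strand: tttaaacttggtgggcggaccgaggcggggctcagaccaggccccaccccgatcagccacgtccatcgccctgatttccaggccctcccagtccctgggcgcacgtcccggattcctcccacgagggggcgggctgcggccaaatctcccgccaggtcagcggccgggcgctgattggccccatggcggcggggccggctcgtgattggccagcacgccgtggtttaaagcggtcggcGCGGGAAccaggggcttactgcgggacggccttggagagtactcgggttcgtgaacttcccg
CDC6, chr17:40287629-40287928, plus strand: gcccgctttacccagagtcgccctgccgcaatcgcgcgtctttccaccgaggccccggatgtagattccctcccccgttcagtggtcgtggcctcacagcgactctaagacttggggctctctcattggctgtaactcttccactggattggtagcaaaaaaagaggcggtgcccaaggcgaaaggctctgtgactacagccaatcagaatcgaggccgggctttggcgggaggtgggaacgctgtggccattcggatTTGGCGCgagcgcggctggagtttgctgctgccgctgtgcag
The TK1 letters began 12 bases before the start of the second of its listed promoters and those of CDC6 9 bases after the start. CDC6 fell by 2.67 on the log2 scale. Over the 2 directions of call, E2F letters stood in 32% of the genes called lower with a promoter and in 15.2% of those called higher. The other motifs differed less by direction. The shares, lower then higher, were 23.4% and 19.3% for CHR and 51.6% and 43% for CCAAT. For the NF-kB site they were 7.26% and 8.76%, and for the p53 half-site 7.26% and 9.97%.

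**Figure D2:**
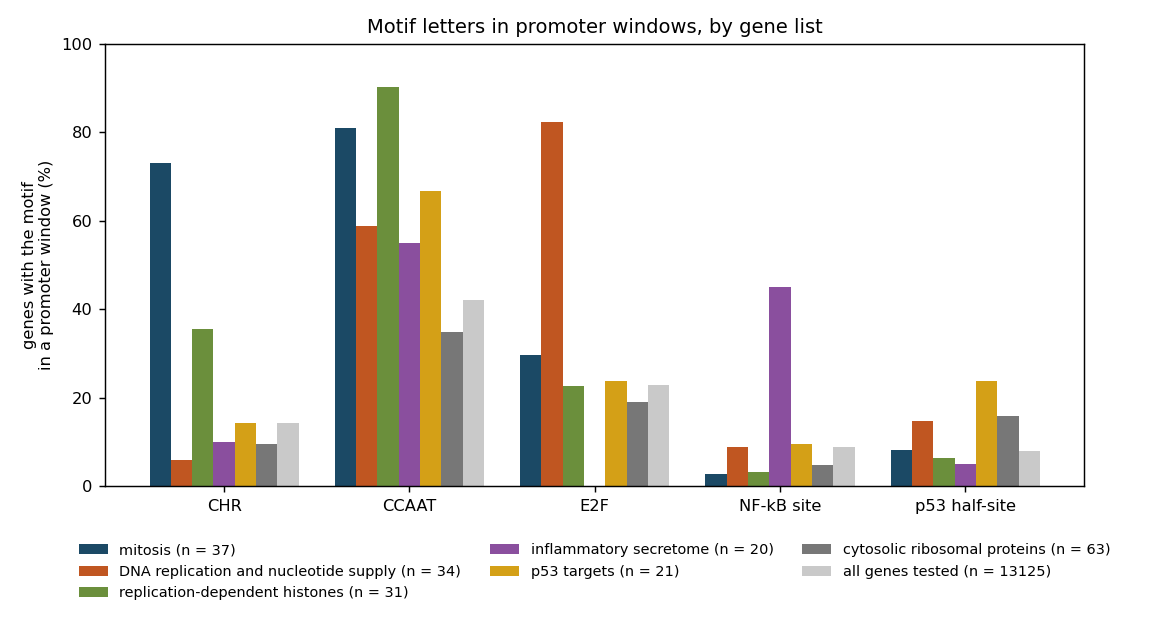
Bars give the percentage of genes with a RefSeq promoter that hold the letters of each motif on either strand, for 6 gene lists and for all genes tested. A gene counts if any of its promoter windows of 300 bases holds the letters. CHR is highest for mitosis (73.0%), E2F for DNA replication (82.4%), and the NF-kB site for the inflammatory secretome (45%). CCAAT is highest for the replication-dependent histones (90.3%).

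Double-strand break repair and Fanconi anaemia genes were lower in larger part. Of 39, 17 were called lower and none higher, and by adjusted p 30 were lower and 3 higher, with a median of -0.72. FANCD2, the ubiquitylated core of the Fanconi pathway, fell 7.72-fold, EXO1, the nuclease that resects ends, 7.28-fold and BRCA1, which promotes recombination, 2.32-fold. The members that were higher included the checkpoint kinase CHEK2 (0.34) and the end-joining factor XRCC4 (0.89), named after their values were seen. The targets of the drug fell as well: topoisomerase II alpha (TOP2A), which dividing cells make, was at 109.7, 109.9 and 96.3 CPM in proliferating cells and at 10.9, 12.7 and 10.3 CPM in senescent cells. Topoisomerase II beta (TOP2B) fell 2.06-fold (-1.04 ± 0.06 SE, adjusted p = 5.01e-13).

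The brakes on the cycle did not move as one. CDKN1A (chr6:36644237-36655114, hg19, plus strand), which encodes p21, was at 929, 914 and 966 CPM in proliferating cells and at 2961, 2773 and 2896 CPM in senescent cells. The 3.07-fold rise (1.62 ± 0.04 SE, adjusted p = 1.98e-20) was the only one past the fold limit among 8 CDK inhibitor genes, of which 4 were higher and 4 lower by adjusted p. CDKN2A, the locus of p16 and ARF, was at 29.1, 29.9 and 33.5 CPM and then at 37.8, 35 and 36.3 CPM, a rise of 0.24 on the log2 scale (adjusted p = 0.00306) that gene counts cannot divide between its 2 products. CDKN2B (p15) rose 1.72-fold. CDKN2C (p18) fell 7.02-fold, CDKN1B (p27) fell by 0.90 on the log2 scale, and CDKN3, a phosphatase of CDKs that dividing cells express, fell 9.47-fold. Among 21 genes for G1 cyclins, RB proteins and E2F factors, 4 were called lower and 3 higher, and by adjusted p 15 were lower and 5 higher. Cyclin D2 (CCND2) rose 6.56-fold, from 3.64 ± 0.418 to 24.1 ± 1.05 CPM (SD, n = 3), the activator E2F2 fell 7.12-fold and the RB-like protein p107 (RBL1) 3.59-fold. The other genes called higher, named after their values were seen, were the far more abundant cyclin D1 (CCND1) and E2F7. CCND1 rose by 1.76 on the log2 scale, from 732 to 2480 CPM in the group means, and E2F7 by 1.10.

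p53 target genes rose in number more than in size. Of 27, 23 were higher by adjusted p and 2 were lower, 6 were called higher and none lower, and the median was 0.55. GDF15, a stress cytokine, was at 37, 35.5 and 38.3 CPM and then at 212, 212 and 210.5 CPM, a 5.73-fold rise. TNFRSF10C, a decoy receptor for TRAIL, rose by 2.32 on the log2 scale and RRM2B, the ribonucleotide reductase subunit used outside S phase, by 1.19. MDM2, the ligase that degrades p53, rose 1.53-fold. The 2 lower members, named after their values were seen, were the death effector BAX (-0.26) and the cyclin CCNG1 (-0.36). The p53 half-site letters stood in 23.8% of the p53 targets with a promoter (5 of 21) and in 7.9% of all tested genes. One such window, that of the electron carrier reductase FDXR (0.60, chosen for its letters), is shown with the half-site in capitals, RefSeq, GRCh38.p14:
FDXR, chr17:74872945-74873244, minus strand: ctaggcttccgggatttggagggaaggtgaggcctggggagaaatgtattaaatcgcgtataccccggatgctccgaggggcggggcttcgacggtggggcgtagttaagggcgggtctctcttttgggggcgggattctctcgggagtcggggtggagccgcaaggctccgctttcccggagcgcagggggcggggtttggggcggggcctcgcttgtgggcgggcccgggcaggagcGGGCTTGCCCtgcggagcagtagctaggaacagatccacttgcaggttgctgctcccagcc
Among BCL2 family genes, 15 of 17 passed the filter, 3 were called higher and 1 lower, and by adjusted p 8 were higher and 3 lower. The death-promoting BMF rose 2.48-fold and BCL2L11 (BIM) 2.31-fold, while BCL2, which protects from apoptosis, fell 3.21-fold, from 4.39 ± 0.504 to 1.37 ± 0.0917 CPM. Other protective members moved the other way by less: BCL2L2 (BCL-w) rose by 0.51 on the log2 scale and, named after their values were seen, BCL2L1 (BCL-XL) rose by 0.82 and MCL1 by 0.26. The death effector BOK, named likewise, fell by 0.48. HRK, also death-promoting, had 0 counts in the proliferating libraries and 20, 10 and 14 in the senescent ones, at least 4.34-fold higher. The death-promoting p53 target BBC3 (PUMA) was at 12.5, 11.3 and 13 CPM and then at 15.2, 12.3 and 11.7 CPM, with overlapping groups and no difference past the test (adjusted p = 0.41).

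**Figure D3:**
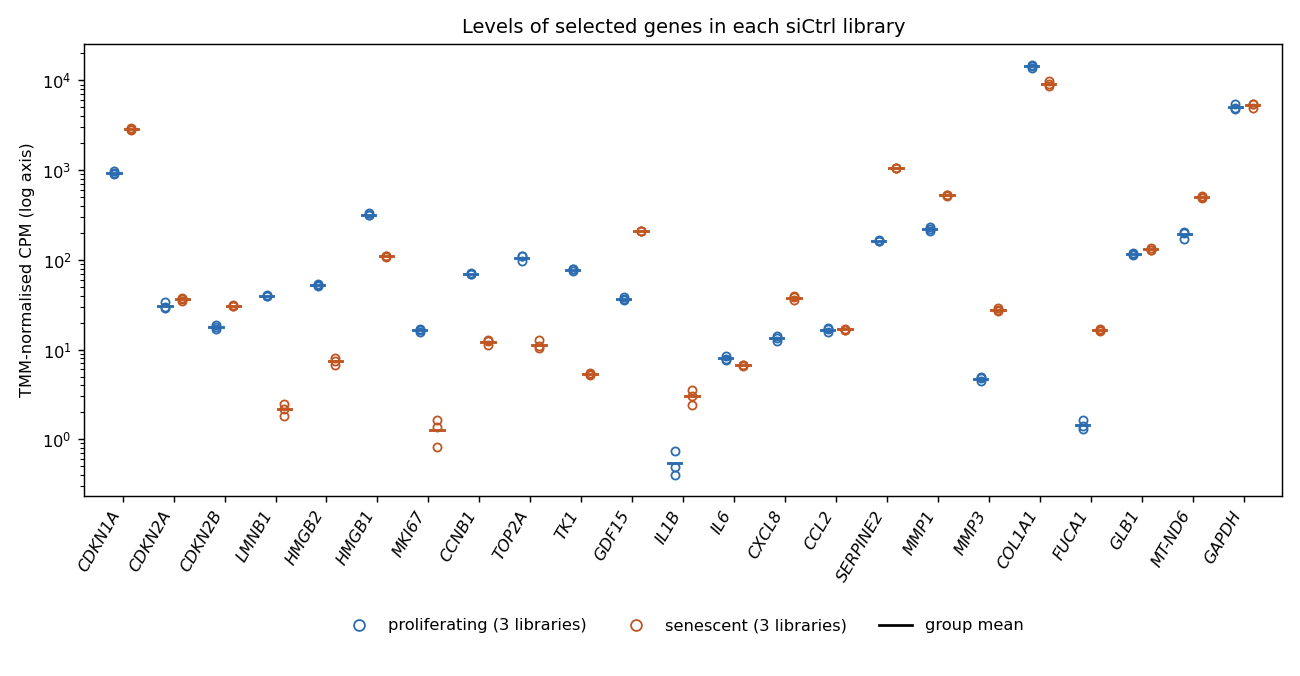
TMM-normalised CPM on a log axis of 23 genes, with proliferating libraries in blue and senescent ones in orange, 1 circle per library and the group mean as a bar. The groups separate widely for LMNB1, MKI67 and TK1 (lower) and for GDF15, SERPINE2 and FUCA1 (higher), and overlap for CCL2 and GAPDH.

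Nuclear lamina and chromatin genes fell with the cycle. LMNB1 (lamin B1, chr5:126112315-126172712, hg19, plus strand) was at 39.1, 39.1 and 40.5 CPM in proliferating cells and at 2.46, 1.81 and 2.18 CPM in senescent cells, an 18.4-fold fall (-4.20 ± 0.10 SE, adjusted p = 7.42e-21). Of 19 tested genes for lamins, HMG and chromatin proteins, 9 were called lower and none higher, and by adjusted p 16 were lower and 2 higher. HMGB2 fell 7.11-fold, HMGB1 2.92-fold, the Polycomb methyltransferase EZH2 by 2.4 and the lamina-associated protein TMPO by 2.35 on the log2 scale. The 2 members that were higher were HMGA1 (0.30) and HMGA2 (0.46), architectural proteins of senescence-associated heterochromatin, named after their values were seen.

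Histone genes of the replication-dependent class went against the other S-phase genes. Of 36 matched, 26 passed the filter, 21 of these were called higher and none lower, 22 were higher by adjusted p, and the median was 2.27 (2.38 over the 21 members over 1 CPM, of which 19 were called higher). H2BC4 was at 1.69, 1.54 and 2.06 CPM and then at 17.4, 16.6 and 16.7 CPM, a 9.82-fold rise, and H4C8 rose 8.21-fold, from 1.69 ± 0.138 to 13.8 ± 1.13 CPM (SD, n = 3). H3C4 rose 8.56-fold. Transcripts of this class normally end in a stem-loop without a poly(A) tail, and the libraries were made from polyadenylated RNA, so that the counts are of the polyadenylated share and not of the total histone mRNA. The genes are near-identical copies, and the division of reads between them is uncertain.

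Among secreted factors, matrix proteases and their inhibitors were mostly higher. Of 23 tested, 12 were called higher and none lower, and by adjusted p 19 were higher and 3 lower. Over the 19 members above 1 CPM, 8 were called higher and the median was 0.50. SERPINE2, an inhibitor of thrombin and plasminogen activators (chr2:224839762-224904035, hg19, minus strand), was at 165, 164 and 161 CPM and then at 1057, 1059 and 1067 CPM, a 6.50-fold rise (2.70 ± 0.04 SE, adjusted p = 1.03e-24). The stromelysin MMP3 rose 5.91-fold, from 4.72 ± 0.267 to 27.8 ± 1.06 CPM, and the collagenase MMP1 2.39-fold, from 221 ± 9.52 to 528 ± 6.12 CPM (SD, n = 3).

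Growth factors and their binding proteins were mixed. Of 26 tested, 9 were called higher and none lower, while by adjusted p 16 were higher and 6 lower, and their summed level was 5769 to 5989 CPM in proliferating and 5766 to 5793 CPM in senescent cells. ANGPTL4, a secreted inhibitor of lipoprotein lipase, was at 2.08, 1.87 and 2.16 CPM and then at 38.4, 38 and 38.4 CPM, a 19-fold rise. The EGF receptor ligand AREG rose 7.85-fold, and its relative TGFA had 0 counts in all proliferating libraries and was at least 3.65-fold higher. IGFBP7 rose by 0.82 on the log2 scale, and IGFBP3 fell by 0.51. Members that fell, named after their values were seen, were IGFBP5 (-0.91, from 2973 to 1577 CPM in the group means), the MET ligand HGF (-0.85) and the activin subunit INHBA (-0.58). Among 9 neurotrophin and neurotrophin receptor genes, 3 were called higher, all of them scarce, and by adjusted p 3 were higher and 4 lower. NGFR (p75NTR), the receptor shared by the neurotrophins, was at 0.215, 0.0427 and 0.0271 CPM and then at 1.57, 1.84 and 1.44 CPM.

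Of 24 tested cytokine and chemokine genes, 8 were called higher and 2 lower, by adjusted p 11 were higher and 5 lower, and among the 15 over 1 CPM 4 were called higher and 2 lower, with a median of 0.13. CXCL8 (IL-8), a neutrophil chemokine, was at 14.1, 13.5 and 12.4 CPM and then at 35.3, 38.7 and 39.1 CPM, a 2.82-fold rise (adjusted p = 2.95e-15). IL1B was at 0.484, 0.399 and 0.731 CPM and then at 2.42, 3.51 and 3.06 CPM, a 5.84-fold rise. IL1A, the upstream cytokine of the SASP, rose from 0.0572 ± 0.0514 to 0.600 ± 0.178 CPM (SD, n = 3), with 1 proliferating library at 0.

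IL6 and CCL2, which are often measured as SASP factors, were not among the genes that rose. IL6 was at 8.41, 7.72 and 7.74 CPM and then at 6.77, 6.74 and 6.61 CPM, a fall of 0.25 on the log2 scale (adjusted p = 0.0323) that no longer passed without senescent library 1 (-0.26), senescent library 3 (-0.25) or proliferating library 1 (-0.22), nor with DESeq2 (-0.23), library totals (-0.21) or no filter (-0.26). CCL2, a monocyte chemokine, was at 16.8, 17.2 and 15.6 CPM and then at 16.6, 17.1 and 16.7 CPM, with overlapping groups (adjusted p = 0.845). The 2 genes called lower, named after their values were seen, were IL15 (-1.24), which sustains NK cells, and the macrophage growth factor CSF1 (-1.18).

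NF-kB site letters stood in the windows of 45% of the cytokine genes with a promoter (9 of 20) and of 8.8% of all tested genes. The window of CCL20, a chemokine for CCR6-positive lymphocytes that was called higher from a low level (0.129 to 0.471 CPM in the group means) and chosen for its letters, is shown with the site in capitals, RefSeq, GRCh38.p14:
CCL20, chr2:227813592-227813891, plus strand: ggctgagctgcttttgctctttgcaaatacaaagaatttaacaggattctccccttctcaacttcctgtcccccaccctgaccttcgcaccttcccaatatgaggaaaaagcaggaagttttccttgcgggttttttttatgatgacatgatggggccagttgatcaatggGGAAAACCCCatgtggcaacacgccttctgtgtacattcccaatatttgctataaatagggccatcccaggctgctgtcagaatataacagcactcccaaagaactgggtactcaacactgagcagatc
The site began 79 bases before the start. The genes for NF-kB subunits and regulators themselves did not rise as a group: of 18, 1 was called higher and 2 lower, and by adjusted p 7 were higher and 9 lower. NFKB1 (p105/p50) fell by 0.92 on the log2 scale and VCAM1, an adhesion molecule induced by NF-kB, fell 4.10-fold, from 29.9 ± 1.35 to 7.29 ± 0.633 CPM. The feedback inhibitor TNFAIP3 (A20) fell by 1.02, and NFKBIZ, a nuclear co-regulator of secondary targets, rose by 1.02.

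Interferon-stimulated genes leaned lower. Of 38 tested interferon-stimulated genes, 6 were called lower and 3 higher, and by adjusted p 21 were lower and 7 higher. OAS3, which makes the activator of RNase L, fell 3.65-fold and EPSTI1 by 1.33 on the log2 scale, whereas the ubiquitin-like ISG15 rose by 0.51. The 3 called higher all lay at or under 1 CPM. Genes of MHC class I presentation were near the background, with 1 of 19 called lower, the immunoproteasome subunit PSMB9 (-1.46), none called higher, 8 lower and 5 higher by adjusted p and a median of -0.05, and HLA-E, a ligand of an inhibitory NK cell receptor, was higher by 0.86. HLA genes share reads with each other, so the values of single members are uncertain. Of 13 ligands of NK cells and checkpoint receptors, 5 were called higher and none lower, and 8 were higher and 2 lower by adjusted p, with the NKG2D ligands ULBP2 (2.86-fold) and MICA (2.34-fold) among them. MICA was at 32.3, 33.8 and 32.6 CPM and then at 77.0, 78.9 and 75 CPM.

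Complement component C3, the hub of the complement cascade, was among the 10 largest rises of genes with at least 1 CPM. It was at 0.413, 0.442 and 0.541 CPM in proliferating cells and at 11.2, 13.2 and 10.2 CPM in senescent cells, a 25.3-fold rise (4.66 ± 0.14 SE, adjusted p = 2.46e-19). The serine protease C1R fell 2.58-fold, and over 14 tested complement genes 2 were called higher and 1 lower, and by adjusted p 9 were higher and 2 lower.

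**Figure D4:**
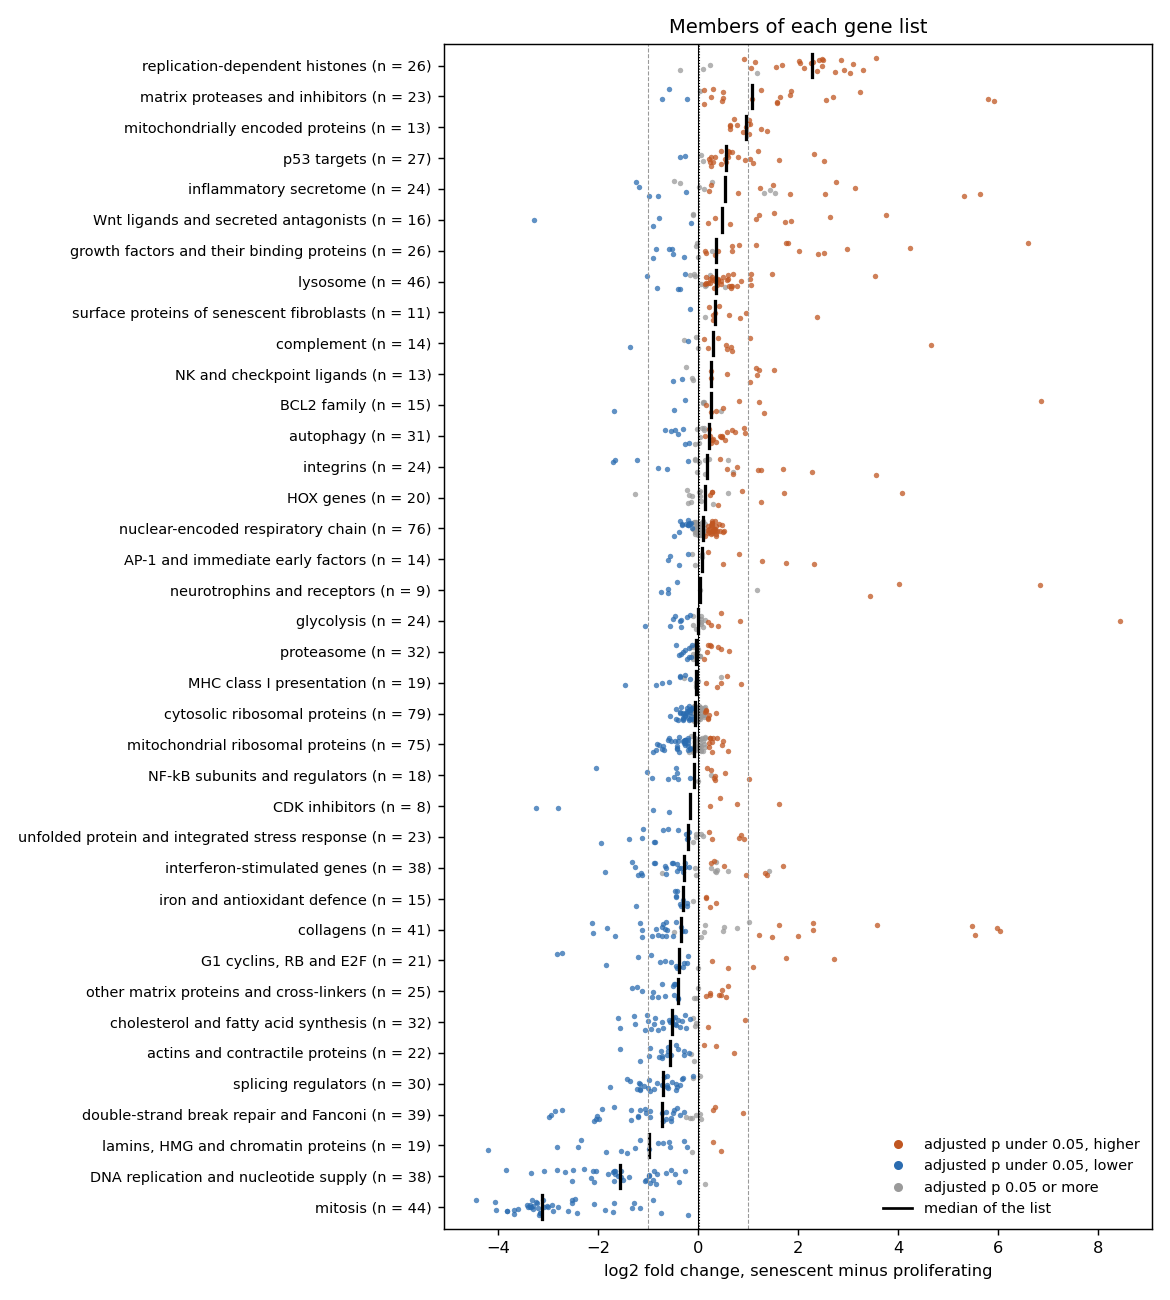
Each point is the log2 fold change (senescent minus proliferating) of 1 tested gene of a list, orange or blue where the adjusted p was under 0.05, with list medians as black bars, the fold limit dashed and the median of all genes dotted. Mitosis (-3.13) and DNA replication (-1.57) have the lowest medians and replication-dependent histones (2.27) the highest. The points farthest to the right are genes with no or few counts in proliferating cells, whose fitted values depend on the prior count.

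Collagen genes over 1 CPM leaned lower. Of 41 tested collagen genes, 11 were called higher and 7 lower, and by adjusted p 11 were higher and 22 lower. Among the 30 over 1 CPM, 5 were called higher and 7 lower with a median of -0.64, and among the 11 at or under 1 CPM, 6 were called higher and none lower. Of those 11, 2 had 0 counts in all proliferating libraries and could differ only upwards. Over all genes at or under 1 CPM, 30.6% were called higher and 3.56% lower. COL1A1, the main chain of type I collagen, was at 14374, 13751 and 15056 CPM and then at 9025, 9872 and 8699 CPM, a 1.56-fold fall. COL3A1 fell 2.19-fold, from 2052 ± 43.1 to 938.0 ± 49.5 CPM (SD, n = 3). In contrast COL2A1, the collagen of cartilage, was at 0, 0.0427 and 0.0271 CPM and then at 1.12, 1.14 and 1.47 CPM. Elastin (ELN) fell 2.51-fold, the collagen chaperone SERPINH1 2.33-fold and thrombospondin 1 (THBS1), an activator of latent TGF-beta, 2.17-fold, and these were the 3 called lower of 25 other matrix genes, with none called higher. By adjusted p, 14 of the 25 were lower and 8 higher, and fibronectin (FN1) was higher by 0.55 (from 7194 to 10537 CPM in the group means) and the cross-linking oxidase LOX by 0.59, both named after their values were seen. The summed level of these 25 genes overlapped between the groups, at 22622 to 22852 and 21489 to 24164 CPM.

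Actin and contractile genes also leaned lower, by less. Of 22, 17 were lower by adjusted p and 3 higher, 2 were called lower and the median was -0.57. The non-muscle myosin MYH10 fell by 1.57 on the log2 scale, calponin 2 (CNN2) by 1.17, beta-actin (ACTB) by 0.54 and smooth muscle actin (ACTA2), the marker of myofibroblasts, by 0.40. GAPDH, often used for scaling, was at 4801, 4970 and 5479 CPM and then at 5492, 4884 and 5442 CPM and did not pass the test (0.05, adjusted p = 0.367), although it passed without proliferating library 3 (0.11). Of 24 tested integrin genes, 5 were called higher and 3 lower, by adjusted p 9 were higher and 6 lower, and 4 of the genes called higher were at or under 1 CPM. ITGB8, which releases active TGF-beta, fell by 1.71.

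Lysosomal genes rose by small amounts in large number. Of 46, 33 were higher by adjusted p and 5 lower, 5 were called higher and 1 lower, and the median was 0.36. FUCA1, the lysosomal fucosidase, was at 1.40, 1.31 and 1.62 CPM and then at 16.8, 16.5 and 15.9 CPM, an 11.5-fold rise. MCOLN1, the calcium channel of the lysosomal membrane, rose 2.78-fold, the glycosidase IDUA 2.08-fold and the membrane protein CD68 2.07-fold. GLB1, which encodes the beta-galactosidase behind the usual stain for senescence, was at 114, 117 and 120.2 CPM and then at 129, 136 and 127 CPM, a rise of 0.16 on the log2 scale (adjusted p = 0.00488). None of 31 autophagy genes was called, while 17 were higher and 7 lower by adjusted p. MAP1LC3B (LC3B), which coats autophagosomes, rose by 0.92 and ATG4A, which processes LC3 family proteins, by 0.94.

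Metabolic and stress programs fell in part. Of 32 tested genes of cholesterol and fatty acid synthesis, 27 were lower and 2 higher by adjusted p, 7 were called lower and none higher, and the median was -0.53. SCD, the stearoyl-CoA desaturase, was at 577, 584.5 and 587 CPM and then at 194, 196.5 and 203 CPM, a 2.94-fold fall, and INSIG1, the sterol-sensing retention protein, fell 3.04-fold. Of 23 genes of the unfolded protein and integrated stress responses, 4 were called lower and none higher, and 13 were lower and 5 higher by adjusted p. Asparagine synthetase (ASNS), a target of ATF4, fell 3.86-fold, from 101.6 ± 2.75 to 26.3 ± 1.79 CPM, and CHAC1, which degrades glutathione and is also an ATF4 target, fell by 1.10. Among 15 tested genes of iron handling and antioxidant defence, 10 were lower and 4 higher by adjusted p, and the quinone reductase NQO1, a target of NRF2, fell 2.37-fold from 1123 ± 27.8 CPM (SD, n = 3).

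Glycolysis genes were balanced, with 9 lower and 6 higher by adjusted p among 24 and 1 called in each direction. Phosphofructokinase PFKP fell by 1.06 on the log2 scale and hexokinase HK2 rose by 0.83. PDK4, the kinase that shuts off pyruvate dehydrogenase, had 0 counts in the proliferating libraries and 41, 46 and 47 in the senescent ones, at least 13.1-fold higher.

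Genes of the mitochondrial genome were higher. All 13 protein-coding genes of the mitochondrial genome were higher by adjusted p, 6 of them called, with a median of 0.95. MT-ND6, the complex I subunit encoded on the light strand, was at 173, 206 and 199.8 CPM and then at 521, 503 and 483 CPM, a 2.61-fold rise, and MT-ND5, on the other strand, rose 2.37-fold. Of 76 nuclear-encoded respiratory chain genes none was called, 30 were higher and 13 lower by adjusted p, and the median was 0.09. Nuclear copies of mitochondrial sequence can share reads with these genes. The share of all counts that came from mitochondrially encoded genes was 1.82 ± 0.202% in proliferating and 3.47 ± 0.165% in senescent cells (SD, n = 3), with p = 0.1 in the two-sided exact permutation test, the smallest that it can give.

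Ribosome and proteasome genes moved by less than the fold limit. None of 79 cytosolic ribosomal protein genes, 75 mitochondrial ribosomal protein genes or 32 proteasome genes was called in either direction. By adjusted p, 29 cytosolic ribosomal protein genes were lower and 7 higher (median -0.06), against 32 and 11 of the mitochondrial ones (median -0.08), and 10 proteasome genes were lower and 8 higher (median -0.04). The number of higher cytosolic members was 13 without senescent library 2, 12 without proliferating library 3, 2 without senescent library 3, 4 without proliferating library 1 and 3 without proliferating library 2. Ribosomal protein genes share reads with many pseudogenes, so single values are uncertain. Splicing regulators of the SRSF and HNRNP families were lower in most cases: of 30 tested, 28 were lower by adjusted p, 10 were called lower and none was higher, with a median of -0.70. HNRNPD (AUF1), which promotes decay of AU-rich cytokine mRNAs, was at 194, 199 and 198 CPM and then at 58.1, 57.6 and 59.0 CPM, a 3.38-fold fall, and SRSF2 fell 2.56-fold.

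Secreted developmental signals changed in both directions. Of 16 Wnt ligands and secreted antagonists that passed the filter (of 31), 7 were called higher and 1 lower, and 10 were higher and 4 lower by adjusted p. Among the 13 over 1 CPM, 4 were called higher and 1 lower, with a median of 0.20. The 3 at or under 1 CPM were all called higher, beside 30.6% of all genes at that level. WNT2 fell 9.81-fold, from 9.49 ± 1.44 to 0.964 ± 0.343 CPM, and the antagonist DKK2 rose 3.62-fold, from 0.958 ± 0.221 to 3.49 ± 0.355 CPM (SD, n = 3). Of 20 HOX genes that passed (of 39), 8 were higher by adjusted p and none lower, with HOXB8 up by 1.26 and HOXB5 by 0.88 on the log2 scale. Past the fold limit 3 of the 20 were higher and none lower, and 2 of these 3 were at or under 1 CPM. Among 14 AP-1 and immediate early factors, 6 were higher and 4 lower by adjusted p, and the median was 0.08. The 3 called higher were EGR2 (2.32), FOSB (1.75) and FOS (1.27), all scarce. Their group means were 0.254, 0.388 and 0.472 CPM in proliferating cells and 1.34, 1.36 and 1.16 CPM in senescent cells. Of 11 surface proteins described on senescent fibroblasts, 9 were higher and 1 lower by adjusted p. CD36, a scavenger receptor, rose 5.17-fold and DPP4, a dipeptidase used to sort senescent cells, was at 61.0, 57.2 and 55.6 CPM and then at 109, 118 and 112 CPM.

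The largest changes among genes with at least 1 CPM in the higher group lay outside most of these lists. The salivary cystatins CST1 and CST4, secreted inhibitors of cysteine proteases, had the largest fitted rises of this kind among genes with counts in every proliferating library. CST1 was at 0.538, 0.128 and 0.379 CPM and then at 17.9, 18.7 and 17.4 CPM, a 54.7-fold rise. CST4 was at 0.0179, 0.128 and 0.0812 CPM, near the floor of 3 counts per library, and then at 5.68, 4.81 and 4.17 CPM, and its fold is therefore not given. The cystatins are close paralogs and may share reads. CYP3A7, the fetal liver cytochrome P450, rose from a mean of 0.132 to 3.26 CPM and DRAXIN, a secreted axon guidance cue, from 0.0975 to 2.29 CPM, also from levels near the floor. At the other end ADH1B, the class I alcohol dehydrogenase, was at 7.32, 7.01 and 7.01 CPM and then at 0.321, 0.172 and 0.225 CPM, a 29.5-fold fall. TROAP, a spindle protein, fell 19.6-fold, TMSB15A, an actin-sequestering thymosin, 18.2-fold and the centrosomal kinase NEK2 16.3-fold.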

How the data were processed

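Polyadenylated RNA of WI-38 cells was sequenced from stranded libraries (Illumina TruSeq Stranded mRNA). Per the submitters' processing notes and the study's methods, the authors demultiplexed with bcl2fastq 2.20.0.422, trimmed adapters with Cutadapt, aligned to hg19 with STAR 2.4.0j and counted reads per Ensembl gene with featureCounts 1.6.4. The deposited values are counts, whole numbers per gene with no normalization, 1 file per library. Whether counting used the strand is not given in the sources used here, so overlapping and antisense genes are uncertain, as are paralogs that share reads.

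Each file has the same 57773 gene identifiers. At least 1 count in the 12 libraries was found for 41004 of them, and 55538 could be paired with a symbol. Counts were tested in R 4.3.3 with the quasi-likelihood F test of edgeR 4.0.16 (TMM scaling, filterByExpr over the 4 groups, 1 term per group, all 12 libraries in 1 fit), with Benjamini-Hochberg adjustment over all 21518 genes tested. Genes were called at adjusted p below 0.05 when the log2 fold change also exceeded 1 in size, and for the gene lists counts by adjusted p alone are given as well. Fold changes are senescent minus proliferating, with the standard error taken from the F statistic. One of the siNTRK2 libraries stood apart on the second principal component, and it bears only on the filter on low counts and the estimate of the spread. For genes at 0 in a group, the fold was computed against a floor of 3 counts per library, which covers counting error only and lay between 0.0427 and 0.0812 CPM in the proliferating libraries. DESeq2 1.42.0, DESeq2 size factors in edgeR, library totals, no filter, a fit of the 6 libraries alone, a replicate block and leaving out each of the 6 libraries were the alternatives. The fit was tested on simulated counts.

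Gene lists came from textbook membership, and the lists and the members to be described were chosen with earlier results of these data known. Lists are described by counts and medians and were not tested as sets. Named genes were the 10 largest increases and decreases among called genes with at least 1 CPM in the higher group and groups that did not overlap, the 4 members of each list with the largest change past the adjusted p without overlap, and a fixed set of senescence and housekeeping genes. Others are marked as chosen after their values were seen. Gene coordinates are those of GENCODE v44 lifted to GRCh37. Promoter windows are from a RefSeq table on GRCh38.p14 and were matched by symbol, for 13125 of the tested genes. Some symbols of the lists were not matched, and those genes were not analysed here. Some genes of the fixed set are not reported here.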

Additional observations from a re-analysis of the deposited data

How the results depend on the processing

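The number of genes called higher was between 2430 and 2568 (2494 as reported) with DESeq2's Wald test, its size factors, library totals or a replicate block, 3501 without a filter on low counts and 1790 in a fit of the 6 siCtrl libraries alone. The number called lower was between 1017 and 1179 in these settings. Leaving out each library gave 2463 to 2616 genes higher and 1085 to 1190 lower. The share of higher among all calls, 69.2%, ranged from 61.9% (6 libraries alone) to 74.8% (no filter). For the gene lists only the counts by adjusted p alone were repeated in these settings, not the counts past the fold limit. Taken over lists, directions and settings, 823 of these counts stayed within 1.5 times of the reported count. A further 13 became smaller and 4 larger by over 1.5 times. Of 212 named genes, 208 kept their direction in every setting and 200 kept both direction and call. The reversals were of genes with no difference past the test: CCL2 was at -0.00763 without senescent replicate 2 and at -0.0190 without proliferating replicate 3 (highest 0.0360), GAPDH at -0.000887 without proliferating replicate 1 (highest 0.108), BDNF at -0.00361 without senescent replicate 3 (highest 0.0481) and BBC3 at -0.0247 without senescent replicate 1 (highest 0.163). The cause was not tested. Counted over the 13 protein-coding genes alone, the difference in mitochondrial share was 1.24 percentage points, against 1.65 with the rRNA and tRNA genes, because fewer genes enter it.

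The groups share replicate numbers, and the deviations of same-numbered libraries from their group means correlated at -0.0109, -0.0135 and 0.0203. No shift common to same-numbered libraries was seen. Values near 0 cannot show that these libraries had nothing else in common, such as an experiment. With the replicate block, 2430 genes were called higher and 1096 lower, with 3503 calls shared.

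A floor of 3 counts corresponds to up to 0.0812 CPM, so changes of genes near that level could not be sized at this depth.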

Other observations

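Some gene families, chosen after the values were seen and in part overlapping the lists, also changed. Of 16 tested keratin genes, the intermediate filament genes of epithelia, 10 were called higher and none lower, 5 of the 10 at or under 1 CPM (median log2 fold change 1.77). Of 38 protocadherin genes, which encode neural adhesion molecules and in the clusters share exons, 19 were called higher and 2 lower, 17 of the 19 at or under 1 CPM. Potassium channel genes were called higher in 24 of 59 cases and lower in 4, with 17 of the 24 at or under 1 CPM. These counts stand beside 11.6% of all genes tested called higher, and 1699 of 5561 at or under 1 CPM. How many tested members of each family were at or under 1 CPM is not given, so the shares cannot be compared at that level.

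Nucleoporin genes, the building blocks of the nuclear pore, were lower by adjusted p in 18 of 22 cases with a median of -0.46 and 1 called higher, and centromere protein genes were called lower in 13 of 21 with none higher. Among 37 kinesin genes, 12 were called lower and 4 higher, the mitotic motor KIF20A and the neuronal motor KIF1A being examples of the 2 directions. The kinesin and centromere protein families share members with the mitosis list, such as KIF20A and CENPF. Their counts therefore partly repeat the result of that list. Zinc finger genes with ZNF symbols leaned lower, with 175 of 469 lower and 61 higher by adjusted p (median -0.14). Of the 22 mitochondrial tRNA genes, 17 were called higher and none lower (median 1.17), and these short RNAs are poorly caught in polyadenylated libraries. By gene type, 12.4% of protein-coding genes and 11% of lncRNA genes were called higher, and 5.48% and 3.99% lower.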
